A study of Mus musculus with 2 samples.

Results

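The 10 genes described here encode the cyclins, kinases and phosphatases that act after cyclin D1 in the cell cycle: Ccne1 and Ccne2 (cyclins E1 and E2), Ccna2 (cyclin A2), Ccnb1 and Ccnb2 (cyclins B1 and B2), Cdk1 and Cdk2, and Cdc25a, Cdc25b and Cdc25c. They were chosen by name, and all 10 were found among the 22350 protein-coding genes on the autosomes and X in the annotation of build NCBIM37 (mm9). Tags came from 2 libraries of ChIP-seq (chromatin immunoprecipitation followed by sequencing), in which fixed and sheared chromatin is recovered with an antibody and the recovered DNA is sequenced. The antibody was M2 anti-FLAG for one library and, as the background control, normal mouse IgG1 for the other. Both came from untreated 3T3 mouse embryonic fibroblasts with genotype Ccnd1-/-, which lack the gene for cyclin D1 and carry FLAG-tagged cyclin D1 from the retroviral vector MSCV. The tagged protein was therefore made under vector control in both libraries. Whether the line was 1 clone is not given in the sources used here, and cells without the tagged protein were not analysed here.

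Cyclin D1 activates CDK4 and CDK6, which phosphorylate the retinoblastoma protein and release E2F transcription factors. Cyclin E with CDK2 then drives entry into S phase, cyclin A serves CDK2 and CDK1 in S and G2, and cyclin B with CDK1 drives mitosis. CDC25 phosphatases remove the inhibitory phosphates from these kinases. Genes of the G1/S step are known E2F targets, while those of G2 and mitosis are known for CCAAT boxes, bound by NF-Y, and for the cell cycle homology region (CHR), bound by the MuvB complexes DREAM and B-MYB-FOXM1.

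The anti-FLAG library held 9255188 tags on the autosomes and X and the IgG library 9308877, so 1 IgG tag was worth 0.994 tags after scaling, and the genome-wide means were 3.62 and 3.64 tags per kb. Each antibody had a single library, so nothing here has a replicate check and a test speaks of this pair of libraries alone. Intervals are 95% intervals for counting error and hold no other error. The labelled cell type could not be set against expression markers, since DNA alone was measured. As a check of the genotype, introns 1 to 3 of Ccnd1 held 1 anti-FLAG and 0 IgG tags, counted at their deposited positions. At the genome-wide means, which make no allowance for GC or repeated sequence, 17.9 and 18.05 would lie there. Intron 4, of 1244 bp, held 14 and 4 tags, so the shortage did not extend over the whole gene. Which exons the deletion removes was not given in the labels, so the labels did not set the choice of introns 1 to 3. The libraries also covered GC-rich DNA differently: in 500-bp windows over 10 kb from every transcription start site (TSS), the scaled anti-FLAG to IgG ratio was 0.953 at 40 to 42% GC and 2.23 at 60 to 62%. Promoter values are therefore given as counted and after a GC correction, in which they are divided by an expected ratio. For each 500-bp tile of a promoter, the tags expected of each library were those of distant windows of like GC. The expected ratio was the anti-FLAG sum over the IgG sum of these tiles. It can differ from the ratio at the GC of the whole promoter: for Ccna2, at 60.8% GC within 500 bp, it was 1.63.

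Within 500 bp of the TSS, anti-FLAG tags exceeded IgG tags by the largest ratios at Ccna2, Cdk1 and Cdc25a. The 2 cyclin E promoters were barely recovered in either library, and Ccnb1 had equal counts. In this window 9 of the 10 genes had more anti-FLAG than IgG tags and 1 had equal numbers. Together the 10 windows held 128 anti-FLAG and 35 IgG tags, a ratio of 3.68 (exact binomial interval 2.51 to 5.51). Within 1 kb the sums were 198 and 80 tags, a ratio of 2.49 (1.91 to 3.27). The map of single tags shows where these counts come from.

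**Figure D1:**
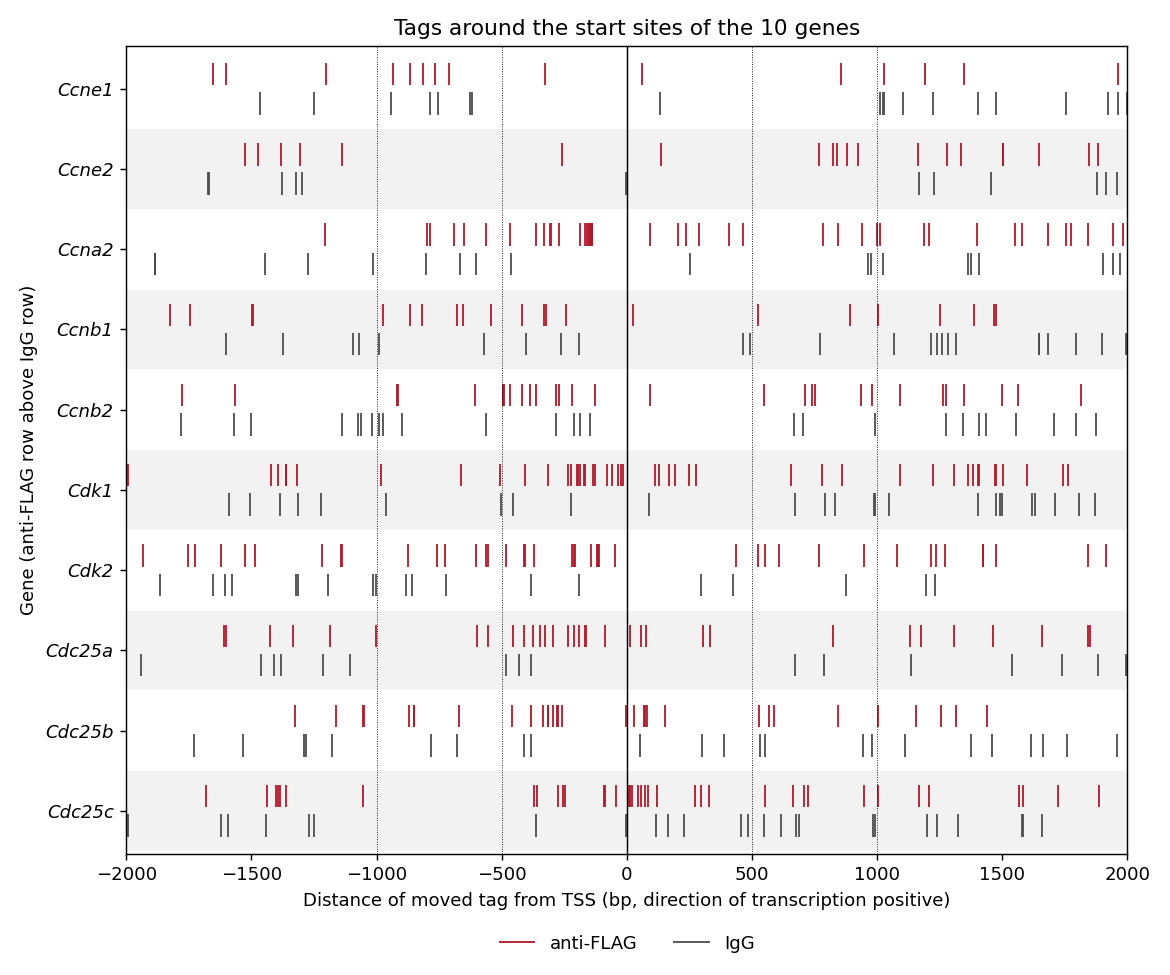
Position of every tag within 2000 bp of the TSS of each gene, in bp along the direction of transcription, with anti-FLAG tags in the upper row and IgG tags in the lower row of each gene. The dotted lines mark 500 bp and 1000 bp; anti-FLAG tags crowd just upstream of the TSS at Ccna2 and Cdk1, whereas Ccne1 and Ccne2 have 2 anti-FLAG tags and 1 IgG tag each inside the inner lines.

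The cyclin E genes, which act first in the cycle, had the fewest tags within 500 bp of the 10 genes. Ccne1 (ENSMUSG00000002068.10) has its TSS at position 38892553 on the minus strand of chromosome 7. It held 2 anti-FLAG tags (exact Poisson interval 0.242 to 7.22) and 1 IgG tag (0.0253 to 5.57) within 500 bp. Within 1 kb it held 8 and 6. Ccne2 (ENSMUSG00000028212.10), with its TSS at 11118498 on the plus strand of chromosome 4, also had 2 and 1 tags within 500 bp, and 7 and 1 within 1 kb. Its ratio within 1 kb as counted, 7.04 (0.905 to 317), was the largest of the 10 at that width, from 8 tags in all and with an interval that includes 1. After the GC correction the ratio of Ccne2 within 1 kb was 2.26 (0.290 to 102), below the 3.32 of Ccna2, and that of Ccne1 was 0.608 (0.185 to 2.12). Of the 7 anti-FLAG tags at Ccne2 within 1 kb, 6 lay inside the gene, and the median position of the 7 was 822 bp downstream of the TSS. A difference at either cyclin E promoter was not detectable at this depth: the ratio within 500 bp was 2.01 for each, with an interval from 0.105 to 119. After the GC correction it was 0.522 for each (0.0272 to 30.8). These windows were the most GC-rich of the 10, at 74.5 and 74.8% GC. Of the 1032 protein-coding promoters at 70% GC or more, the median was 4 anti-FLAG and 1 IgG tags and 1 reached 20 tags in all. Every 36-base start within 1 kb of both TSSs occurred once in the genome.

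Ccna2 (ENSMUSG00000027715.3), the cyclin A gene of somatic cells, had the largest ratio within 500 bp. Its TSS is at 36471072 on the minus strand of chromosome 3. It held 21 anti-FLAG and 2 IgG tags within 500 bp, a ratio of 10.6 (exact binomial interval 2.58 to 92.9, log2 ratio 2.88 with 1 tag added to each count, adjusted exact p = 0.000403 over all genes tested). Within 1 kb it held 30 and 7 tags, a ratio of 4.31 (1.86 to 11.6, adjusted exact p = 0.00224). The excess was mostly upstream: the 250 bp before the TSS held 9 anti-FLAG and 0 IgG tags, and the median anti-FLAG tag lay at -149 bp from the TSS. After the GC correction Ccna2 was the 1 member to pass within 500 bp, at a log2 ratio of 2.38 (adjusted exact p = 0.0280). It did not pass within 1 kb (1.63, adjusted exact p = 0.0635), and taking the mean of the ratios of its 500-bp tiles as the expected value ended the call at 500 bp too (1.84, adjusted exact p = 0.184).

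The cyclin B genes, whose products carry CDK1 into mitosis, had lower ratios than Ccna2, with intervals that overlapped that of Ccna2 at both widths. Ccnb1 (ENSMUSG00000041431.10), with its TSS at 101556525 on the minus strand of chromosome 13, held 5 anti-FLAG and 5 IgG tags within 500 bp, a ratio of 1.01 (0.231 to 4.37). Within 1 kb it held 13 and 8 tags (ratio 1.63, 0.628 to 4.55, adjusted exact p = 0.402). Of the 36-base starts in these windows, 88.7% and 79.96% occurred once in the genome, the lowest shares of the 10 genes, and the effect of this on the counts was not tested. Ccnb2 (ENSMUSG00000032218.6), with its TSS at 70269361 on the minus strand of chromosome 9, held 12 and 4 tags within 500 bp, too few for the main test, with a ratio of 3.02 (0.915 to 12.8). Within 1 kb it held 21 and 11 (ratio 1.92, 0.885 to 4.41, adjusted exact p = 0.157). Neither cyclin B gene passed the test at 1 kb. After the GC correction the ratios within 500 bp were 0.648 (0.149 to 2.81) for Ccnb1 and 2.17 (0.657 to 9.22) for Ccnb2. Within 1 kb they were 1.32 (0.507 to 3.67) and 1.69 (0.778 to 3.87).

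**Figure D2:**
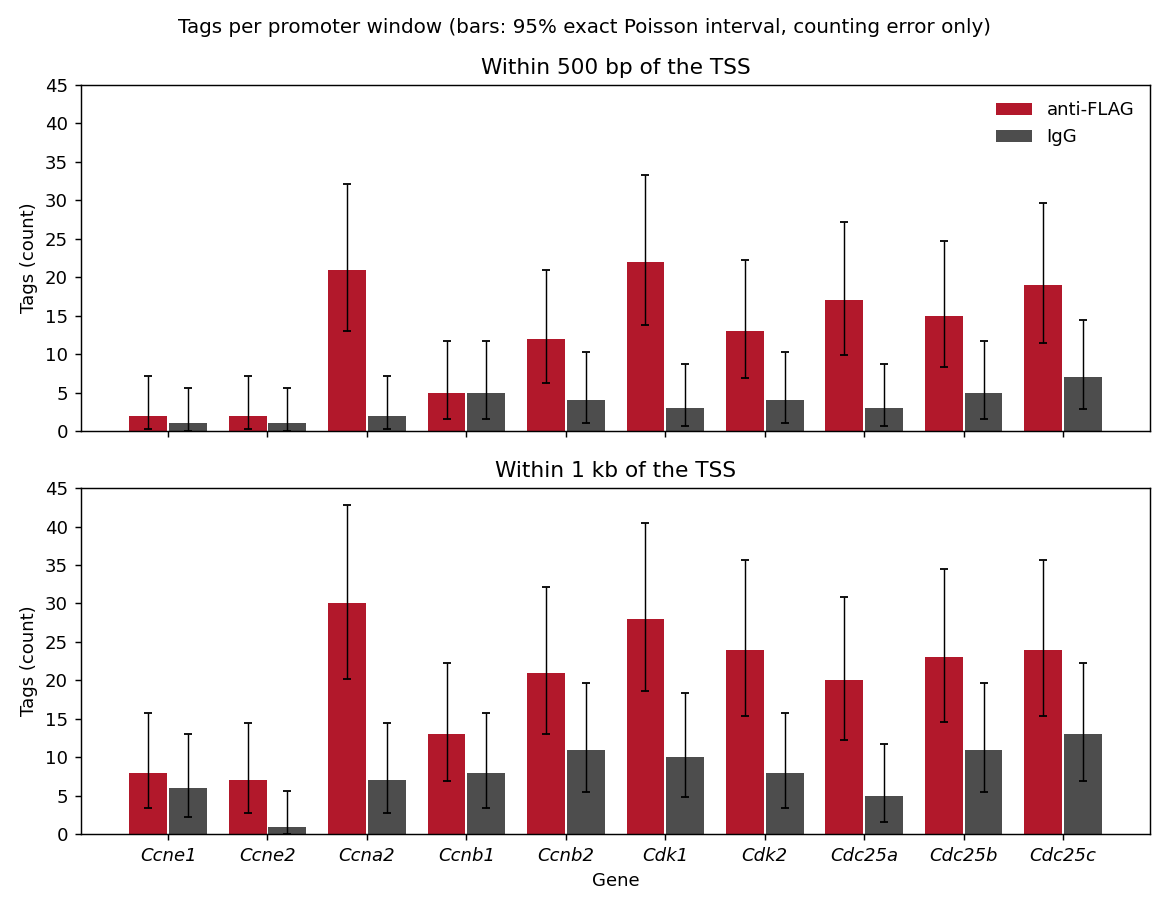
Anti-FLAG and IgG tag counts of each gene within 500 bp (top) and 1 kb (bottom) of its TSS; bars are counts of 1 library and whiskers the 95% exact Poisson interval. Ccna2 and Cdk1 have 21 and 22 anti-FLAG tags within 500 bp against 2 and 3 IgG tags, while Ccnb1 has 5 of each.

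Of the kinase genes, Cdk1 had the more concentrated signal. Cdk1 (ENSMUSG00000019942.6), the kinase of mitosis, has its TSS at 68815686 on the minus strand of chromosome 10 and held 22 anti-FLAG and 3 IgG tags within 500 bp. The ratio was 7.38 (exact binomial interval 2.22 to 38.5, log2 ratio 2.53, adjusted exact p = 0.000734). Within 1 kb the counts were 28 and 10, a ratio of 2.82 (1.33 to 6.50, adjusted exact p = 0.0182). In the 250 bp before the TSS, 14 anti-FLAG tags stood against 1 IgG tag, a ratio of 14.1 (2.14 to 595). The GC correction left log2 ratios of 1.97 within 500 bp (adjusted exact p = 0.0503) and 1.13 within 1 kb (adjusted exact p = 0.171). An alternative coding start of Cdk1, 2108 bp downstream, showed the reverse as counted, with 3 anti-FLAG and 13 IgG tags within 500 bp of it. The ratio there was 0.232 (0.0424 to 0.845), with no GC correction and no test over all genes. Cdk2 (ENSMUSG00000025358.9), the kinase partner of cyclins E and A, has its TSS at 128142107 on the minus strand of chromosome 10. It held 13 and 4 tags within 500 bp (ratio 3.27, 1.01 to 13.8) and 24 and 8 within 1 kb (ratio 3.02, 1.31 to 7.77, adjusted exact p = 0.0218). With the GC correction Cdk2 had a log2 ratio of 1.09 within 1 kb and did not pass (adjusted exact p = 0.248). The opposite-strand gene Pmel starts at -1207 bp from the TSS of Cdk2, outside both windows.

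Of the phosphatase genes, Cdc25a had the highest ratio at both widths, with intervals that overlapped those of Cdc25b and Cdc25c. Cdc25a (ENSMUSG00000032477.8), the CDC25 phosphatase best known at the G1/S step, has its TSS at 109778083 on the plus strand of chromosome 9. It held 17 anti-FLAG and 3 IgG tags within 500 bp (ratio 5.70, 1.65 to 30.4, log2 ratio 2.18, adjusted exact p = 0.00491), and 20 and 5 within 1 kb (ratio 4.02, 1.47 to 13.7, adjusted exact p = 0.0150). Cdc25b (ENSMUSG00000027330.9), which acts at the start of mitosis, has its TSS at 131012685 on the plus strand of chromosome 2 and held 15 and 5 tags (ratio 3.02, 1.04 to 10.6, adjusted exact p = 0.0428). Within 1 kb it held 23 and 11 tags and did not pass (ratio 2.10, 0.985 to 4.78, adjusted exact p = 0.0983). The sperm flagellar gene Spef1 starts 333 bp downstream on the opposite strand, so the tags of Cdc25b cannot be assigned to 1 gene. Cdc25c (ENSMUSG00000044201.9), a mitotic phosphatase, has its TSS at 34911187 on the minus strand of chromosome 18. It held 19 and 7 tags within 500 bp (ratio 2.73, 1.10 to 7.68, adjusted exact p = 0.0335) and 24 and 13 within 1 kb (ratio 1.86, 0.909 to 3.97, adjusted exact p = 0.148). It shares its start with the long intergenic noncoding RNA gene 2010110K18Rik, whose TSS lies at -276 bp on the other strand, and its anti-FLAG tags were spread on both sides of the TSS, with a median position 13 bp downstream. With the GC correction the log2 ratios within 500 bp were 1.62 for Cdc25a (adjusted exact p = 0.125), 0.39 for Cdc25b (adjusted exact p = 0.907) and 1.06 for Cdc25c (adjusted exact p = 0.191).

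**Figure D3:**
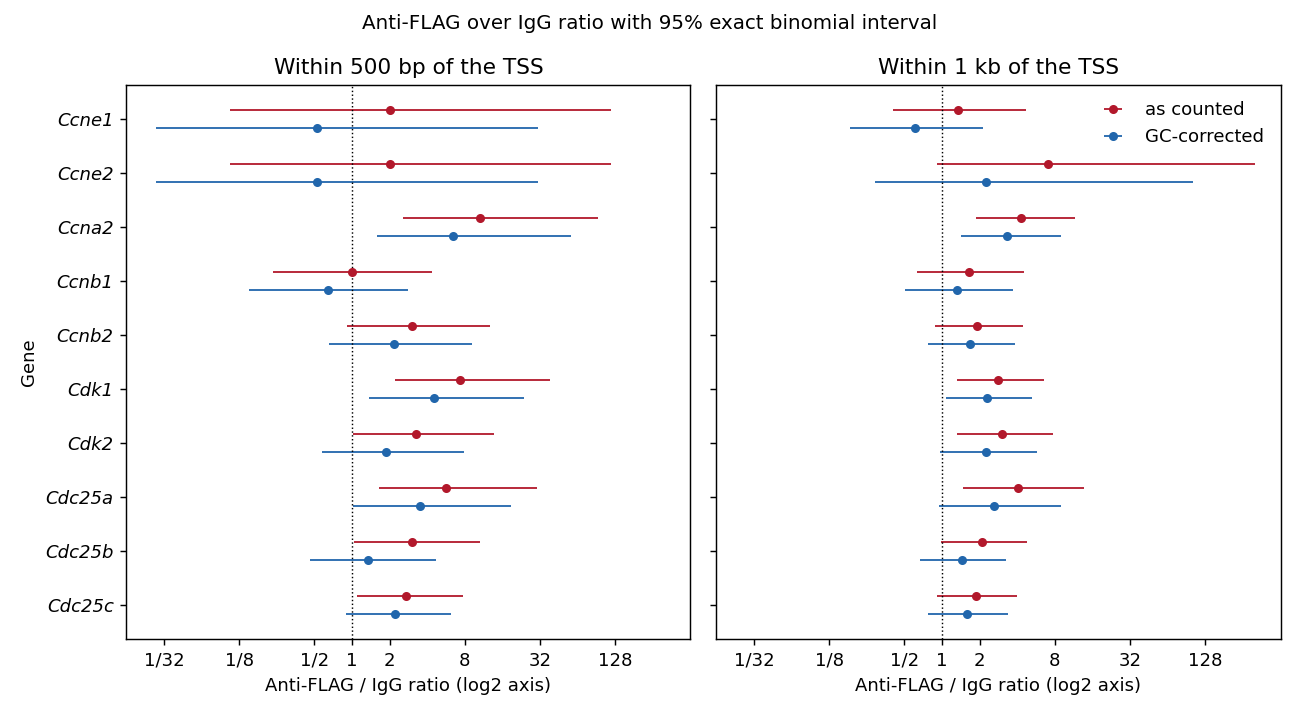
Anti-FLAG to IgG ratio of each gene, scaled by library totals, within 500 bp (left) and 1 kb (right) of the TSS, on a log2 axis, as counted and after the GC correction; lines are 95% exact binomial intervals. As counted, the intervals of Ccna2, Cdk1, Cdk2 and Cdc25a lie above 1 at both widths; after the correction those of Ccna2 and Cdk1 still do.

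In the order of ratios within 500 bp, Ccna2, Cdk1 and Cdc25a came first, then Cdk2, Ccnb2, Cdc25b and Cdc25c between 3.27 and 2.73, then Ccne1 and Ccne2, and Ccnb1 last. The intervals of all neighbours in this order overlapped. The log2 ratios of the 10 ran from 0.01 for Ccnb1 to 2.88 for Ccna2, with a median of 1.40, against a median of 0.81 over all 22350 protein-coding genes. After the GC correction the members' median was 0.90 and that of all genes 0.34. Within 1 kb the medians as counted were 1.21 for the members and 0.59 for all genes.

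The test at 500 bp must be read with its minimum of 20 tags in both libraries together. It admitted 5 members, Ccna2, Cdk1, Cdc25a, Cdc25b and Cdc25c, all of them mostly through their anti-FLAG tags. Ccna2 and Cdk1 met the minimum on anti-FLAG tags alone, the others only with their IgG tags added. All 5 were higher, but so were 62.4% of the 3013 promoters that met the minimum, so this count says nothing about the members. With no minimum, all 10 genes could be tested, and Ccna2 (adjusted exact p = 0.00234), Cdk1 (0.00388) and Cdc25a (0.0206) were higher, 3 of 10 against 11.6% of 21346 promoters. Cdc25b (adjusted exact p = 0.124) and Cdc25c (0.101) then did not pass. Within 1 kb, 8 members met the minimum, all but Ccne1 and Ccne2, and Ccna2, Cdk1, Cdk2 and Cdc25a were higher, 4 of 8 against 29.7% of 10947 promoters. With no minimum the same count was 4 of 10 against 12.2% of 21703 promoters. No member was lower at either width, against 0.0996% of promoters within 500 bp and 0.0913% within 1 kb. After the GC correction 1 of 5 members passed within 500 bp against 12.7% of promoters, and 0 of 8 within 1 kb against 2.76%. None was lower after the correction, against 0% of promoters within 500 bp and 0.0274% within 1 kb. At an unadjusted exact p under 0.05 in either direction, 3 of the 5 passed within 500 bp after the correction, against 33.3% of promoters, and 3 of the 8 within 1 kb, against 20%.

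The 250 bases before the TSS are shown for Cdk1 and Cdc25a, which passed the test at both widths, and for Ccnb1 and Ccne1, which passed at neither. They are read from NCBIM37 on the coding strand, 5′ to 3′ and ending at the base before the TSS, with matches to the CCAAT box (CCAAT), the CHR (TTTGAA or TTCGAA) and the E2F words TTTCCCGC, TTTGGCGC, TTTGCCGC and TTTCGCGC in capitals, on either strand.
Cdk1, chr10:68815687-68815936, minus strand: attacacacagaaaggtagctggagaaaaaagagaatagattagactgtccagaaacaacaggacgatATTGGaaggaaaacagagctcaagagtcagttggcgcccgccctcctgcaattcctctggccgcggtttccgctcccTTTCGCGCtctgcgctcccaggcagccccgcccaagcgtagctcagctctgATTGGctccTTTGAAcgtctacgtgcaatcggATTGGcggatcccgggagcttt
Cdc25a, chr9:109777833-109778082, plus strand: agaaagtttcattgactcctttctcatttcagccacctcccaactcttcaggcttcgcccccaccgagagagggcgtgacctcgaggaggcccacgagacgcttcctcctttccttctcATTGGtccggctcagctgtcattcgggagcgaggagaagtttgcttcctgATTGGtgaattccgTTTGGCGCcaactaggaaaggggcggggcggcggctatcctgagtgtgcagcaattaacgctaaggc
Ccnb1, chr13:101556526-101556775, minus strand: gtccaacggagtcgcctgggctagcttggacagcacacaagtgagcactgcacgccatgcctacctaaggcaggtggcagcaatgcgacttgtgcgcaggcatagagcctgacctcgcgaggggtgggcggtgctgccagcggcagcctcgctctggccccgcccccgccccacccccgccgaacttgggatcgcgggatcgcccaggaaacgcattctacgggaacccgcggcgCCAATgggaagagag
Ccne1, chr7:38892554-38892803, minus strand: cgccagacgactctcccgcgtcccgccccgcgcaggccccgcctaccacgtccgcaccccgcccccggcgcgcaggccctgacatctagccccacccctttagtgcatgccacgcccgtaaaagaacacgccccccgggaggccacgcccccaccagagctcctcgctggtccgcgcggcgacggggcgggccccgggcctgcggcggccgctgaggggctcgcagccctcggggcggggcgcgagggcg
These stretches were 54.4, 56.4, 67.2 and 78.8% GC. The same search over all 10 genes, in the 250 bases before each TSS, found a CCAAT box in 8, all but Ccne1 and Ccna2, against 34.97% of 22345 protein-coding promoters. A CHR word was found in 3, Ccnb2, Cdk1 and Cdc25c, against 16.1% of promoters, and an E2F word in 3, Cdk1, Cdk2 and Cdc25a, against 2.15%. The SP1 word GGGCGG was present in 9, all but Ccnb2, against 39.6%, the E-box CACGTG in 1, Ccne2, against 6.52%, and the CRE TGACGTCA in 0, against 1.92%. Ccna2, with the largest ratio, held none of the 3 capitalised kinds, and Cdk1, with the next largest, held them all. In Cdk1 the CHR word ended at -40 bp and the E2F word at -98 bp from the TSS, inside the 250 bp that held 14 anti-FLAG tags. A match is a description of letters and not a measured site. The absence of a match covers these exact words before the annotated TSS alone. Variant words and bases past that TSS were not searched, and the RefSeq start of Ccnb1 lies 84 bp downstream of it. For Ccna2 no RefSeq start was listed.

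Summed over the 10 genes and as counted, the anti-FLAG excess spanned the TSS. From 250 bp into the gene onwards the intervals of the ratio included 1. Density was 18.0 anti-FLAG and 4.80 IgG tags per kb from 500 to 251 bp upstream, a ratio of 3.77 (1.96 to 7.83). In the 250 bp before the TSS it was 18.0 and 3.20 (ratio 5.66, 2.64 to 13.9). In the first 250 bp of the gene it was 11.2 and 2.40 (ratio 4.69, 1.91 to 13.9). From 250 to 500 bp downstream it was 4.00 and 3.60, a ratio of 1.12 (0.408 to 3.11). Of the anti-FLAG tags within 500 bp, 70.3% (90 of 128, exact binomial interval 61.6 to 78.1) lay upstream, against 57.7% over all protein-coding genes. Of the IgG tags 57.1% did (20 of 35, 39.4 to 73.7), against 60.4% over all genes. The median anti-FLAG tag lay upstream in 9 of the 10, Cdc25c being the exception. Among the 9, Ccne1, Ccne2 and Ccnb1 held only 2, 2 and 5 anti-FLAG tags. Both strands contributed, with 60 anti-FLAG tags on the plus and 68 on the minus strand.

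**Figure D4:**
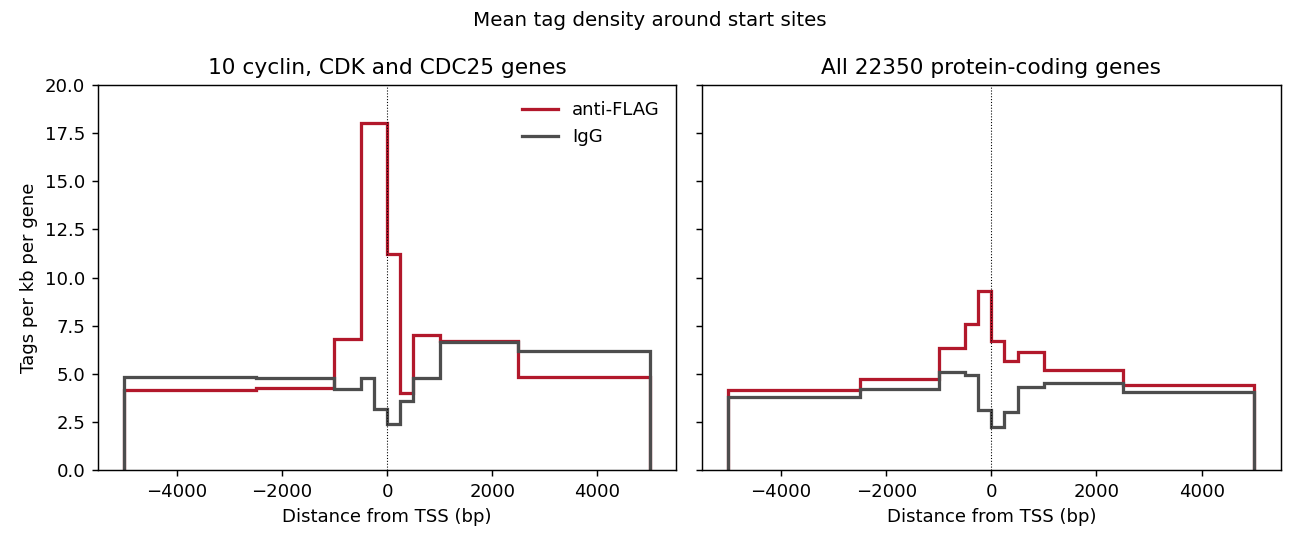
Mean tag density in tags per kb per gene against distance from the TSS in bp, in 10 bands from 5000 bp upstream to 5000 bp downstream, for the 10 genes (left) and for all 22350 protein-coding genes (right). The anti-FLAG line reaches 18.0 in the 10 genes and 9.32 over all genes just before the TSS, and the IgG line dips to 2.40 and 2.25 just after it.

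Gene bodies showed no such excess. From 1 kb downstream of the TSS to the 3′ end, the 10 genes held 567 anti-FLAG and 563 IgG tags, a ratio of 1.01 (exact binomial interval 0.900 to 1.14). All 10 could be tested, and 0 were higher and 0 lower (0 also at an unadjusted exact p under 0.05), against 11.8% of 16959 gene bodies called higher and 4.1% lower. After the GC correction 0 members were higher, against 0.855% of gene bodies. Ratios ran from 0.652 for Ccne1 (24 against 37 tags, 0.373 to 1.12) to 1.39 for Cdk2 (29 against 21 tags, 0.765 to 2.56), with 6 genes above 1 and 4 below. Cdk1, whose promoter had a ratio of 7.38, had 117 anti-FLAG and 103 IgG tags over its body (ratio 1.14, 0.869 to 1.50), and Ccna2 had 41 and 43 (ratio 0.959, 0.610 to 1.51).

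**Figure D5:**
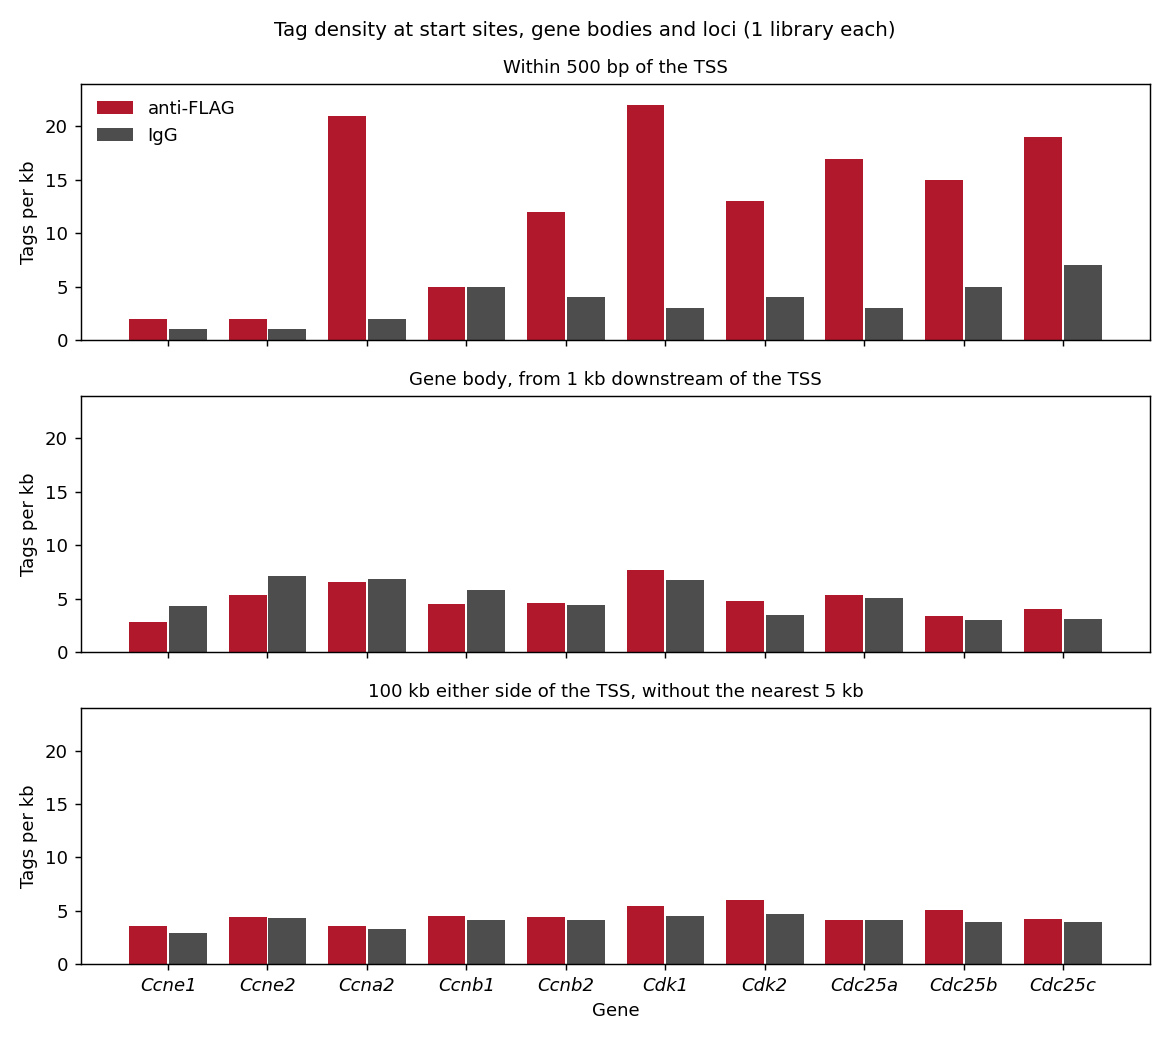
Tags per kb of each gene within 500 bp of the TSS (top), over the gene body from 1 kb downstream of the TSS (middle) and in the 100 kb either side of the TSS without the nearest 5 kb (bottom); each bar is 1 library. Gene bodies lie between 2.81 and 7.65 anti-FLAG and between 3.03 and 7.08 IgG tags per kb, with neither library above the other throughout.

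In the 100 kb either side of each TSS, without the nearest 5 kb, the anti-FLAG density ran from 0.984 of the genome-wide mean at Ccne1 to 1.66 at Cdk2, and the IgG density from 0.803 at Ccne1 to 1.28 at Cdk2. The ratio there ran from 0.991 (0.896 to 1.09) at Cdc25a to 1.30 (1.19 to 1.42) at Cdk2. At Ccnb1, whose promoter had equal counts within 500 bp, it was 1.11 (1.01 to 1.23). When each promoter was scaled by its own flanks instead of library totals, Cdk1 (log2 ratio 1.14, adjusted exact p = 0.0965) and Cdk2 (1.14, 0.155) no longer passed within 1 kb, nor did Cdc25b (1.12, 0.174) and Cdc25c (1.24, 0.0646) within 500 bp.

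Regions of local anti-FLAG excess overlapped 3 of the 10 promoter windows, at either width, against 6.62% of all protein-coding genes within 500 bp and 7.34% within 1 kb. A region was a run of 500-bp windows with at least 10 anti-FLAG tags, 2-fold over the highest of the window's, local and genome-wide IgG backgrounds and, by a one-sided exact Poisson test, a p under 1e-05, and 5939 were found in the genome. The region at Ccna2 ran from 36471001 to 36471500 on chromosome 3 with 14 anti-FLAG and 0 IgG tags, and was 5.22-fold over background. That at Cdk1 ran from 68815501 to 68816000 on chromosome 10 with 17 and 2 tags, 5.18-fold over background. That at Cdc25c ran from 34911001 to 34911500 on chromosome 18 with 14 and 3 tags, 4.69-fold over background, and also overlapped the start of 2010110K18Rik. All 3 spanned the TSS and so covered the promoter and the start of the first exon. The IgG backgrounds of these calls held no GC correction. Of the 3 genes, Ccna2 alone passed the GC-corrected test within 500 bp (adjusted exact p = 0.0503 for Cdk1 and 0.191 for Cdc25c). Within 20 kb of the members the other region lay 11518 bp past the 3′ end of Cdc25b, at 131035751 to 131036500 on chromosome 2, inside the gene 2310035K24Rik, with 17 and 3 tags.

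Among partners and regulators of these kinases, promoters with more anti-FLAG tags were also found, and none passed after the GC correction. Of 34 such genes listed, 33 were found, Bora being the one without a match by symbol. Within 1 kb of the TSS 26 could be tested, of which 12 were higher and 0 lower, against 29.7% of all promoters tested called higher. The median log2 ratio over the 33 was 1.01, against 0.59 over all genes and 0.88 over all promoters tested. After the GC correction these medians were 0.525, 0.293 and 0.528. Within 500 bp 8 of 9 tested were higher, against 62.4% of promoters that met the minimum. After the GC correction 0 passed at either width, with 6 of 26 within 1 kb and 3 of 9 within 500 bp at an unadjusted exact p under 0.05, against 20% and 33.3% of all promoters tested at those widths. The smallest p within 1 kb belonged to Cdc14b, a phosphatase gene that opposes CDK phosphorylation, with 34 anti-FLAG and 6 IgG tags (ratio 5.70, 2.37 to 16.6, adjusted exact p = 0.000334). It was followed by Cdk7, the kinase that activates CDK1 and CDK2, with 34 and 10 (ratio 3.42, 1.65 to 7.76, adjusted exact p = 0.00374), and by Cks2, a small CDK-binding subunit, with 23 and 5 (ratio 4.63, 1.72 to 15.6, adjusted exact p = 0.00568). Of the 9 tested within 500 bp, the smallest p belonged to Lin52, a MuvB subunit, with 23 and 5 tags (adjusted exact p = 0.00241). Then came Cdk7 with 19 and 4 (adjusted exact p = 0.00491) and Ppp2r2d, a regulatory subunit of the phosphatase PP2A, with 17 and 4 (adjusted exact p = 0.0107). This order leaves out promoters under the minimum of 20 tags, some with larger ratios, such as Cdc14b with 18 and 1 tags (ratio 18.1, 2.86 to 754).

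The tag pattern most like that of Ccna2, the member of smallest p, was sought over 80 values, the tags of both libraries in 250-bp bins within 5 kb of the TSS. Among 6672 promoters of similar or greater depth, the highest Pearson correlations were 0.72 for Ap1m1, 0.71 for Tmed1 and 0.69 for Dtx4. Within 500 bp these had 19 anti-FLAG and 3 IgG, 24 and 4, and 30 and 6 tags. The bins share libraries and depth, and the values describe likeness of shape alone.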

How the data were processed

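For 1 anti-FLAG and 1 IgG library of mouse 3T3 fibroblasts, the authors deposited the strand and the start and end position of each tag. Their score column holds the constant 512 in the deposited files and entered no test. Every tag spanned 36 bp, and 0 shared position and strand with another of the library. The sources used here do not give the aligner, build or filters; 4 anti-FLAG and 2 IgG tags lay beyond a chromosome end of NCBIM37, whose genome and annotation were used. The TSS was the annotated 5′ end of the gene. RefSeq promoters (GRCm38.p6), matched by sequence, existed for 7 members and started from 1 bp before to 84 bp after it; none was listed for Ccne2, Ccna2 and Cdc25c.

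Tags were moved 76 bp downstream, from an opposite-strand lag of 153 bp in the anti-FLAG library. A promoter entered the test where the 2 libraries had at least 20 tags between them. The test was an exact, 2-sided binomial test given that total, with Benjamini-Hochberg adjustment over all promoters that entered and a threshold of 0.05. For the GC correction, expected tags of each library came from distant 500-bp windows in strata of 2 GC points. End strata with under 500 windows were pooled. The pooled stratum of highest GC, with 0.169 IgG tags per window, entered the expected ratio within 500 bp of the cyclin E promoters. It also entered that of Ccna2, Cdk1 and Cdc25a. Log2 ratios had 1 tag added. The test as counted was also run on simulated Poisson counts with known fold differences. These held no GC difference between the libraries, so they do not bear on the GC effect. Tools were Python 3.11.15, NumPy 2.4.6, SciPy 1.17.1, pandas 2.3.3 and Matplotlib 3.10.9. Alternatives changed scaling, tag shift, tag minimum, pseudocount, TSS and GC strata. Members, lists and tests were chosen with earlier results of these data known. Named were all members, per width the 3 tested pathway genes of smallest p, and the 3 promoters most like the leading member.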

Additional observations from a re-analysis of the deposited data

How the results depend on the processing

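No paired analysis was possible because each antibody had 1 library. Within 500 bp of the TSS the count of members higher, 5 as reported, was 3 with tags not moved, 3 with a minimum of 10 tags and 3 with no minimum. The count of all promoters higher within 500 bp, 1880 as reported, was 3456 with a minimum of 10 tags, where more promoters were tested. Scaling by background bins (0.909 in place of 0.994) and the TSS of the longest coding transcript left 5. With the GC correction, 1 member passed within 500 bp as reported, but 2 with strata of 4 GC points, 2 with windows over 50 kb from every TSS, and 0 with the mean of the tile ratios, an alternative added after the data were seen. Within 1 kb 0 passed as reported, and 1 under each of the first 2 of these alternatives. The second member at 500 bp was Cdk1 (adjusted exact p = 0.0343 and 0.0290) and the one at 1 kb was Ccna2 (0.0483 and 0.0352). The cause of these shifts was not tested. Within 1 kb the count of members higher was 4 with background scaling, tags not moved, a minimum of 10 tags, no minimum and the other TSS, but scaling by the flanks ended the calls of Cdk1 and Cdk2 there and those of Cdc25b and Cdc25c within 500 bp. Over gene bodies 0 members were higher with background scaling and with the GC correction. Scaling by the flanks turned the log2 ratio of Ccnb1 within 500 bp to -0.12, from 5 tags in each library. Without moving the tags it was 0.68, from 7 anti-FLAG and 4 IgG tags. Tags not moved left Cdc25a with 16 anti-FLAG and 3 IgG tags, under the minimum, and Cdc25b with an adjusted exact p of 0.0537. Depth limits Ccne1 and Ccne2 most, where 3 tags in all gave intervals from 0.105 to 119.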
